A study of Arabidopsis thaliana with 58 samples.

Results

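The regions described here are the short H3K9me2 peaks of the chromosome arms, which were 319 of the 4144 peaks that the authors called in Arabidopsis thaliana flowers. They were chosen by width and place: a peak had to be under 1000 bp wide, with its summit on chromosome 1, 3 or 5 and outside the pericentromere, the gene-poor region around the centromere. Chromosome 1 had 125 of them, chromosome 3 had 94 and chromosome 5 had 100, out of 2549 peaks on these chromosomes. Width and place therefore describe how the regions were selected and are not findings, and the fold enrichment comes from the same library.

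The study sequenced DNA methylation and H3K9me2 in the wild-type strain Columbia-0. The H3K9me2 library was made from nuclei of unopened flower buds of plants grown in long days, a tissue that mixes many cell types. It was 1 library, so the values have no replicates, and the intervals given below cover counting error only. The peak list holds no read counts, so the depth is unknown. Neither the matching H3 library nor the H3K9me2 library of leaves was analysed here.

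H3K9me2 is histone H3 dimethylated at lysine 9, a mark of silenced chromatin. In plants the histone methyltransferase SUVH4 (KRYPTONITE) and the DNA methyltransferase CMT3 act in a loop, since CMT3 binds H3K9me2 and methylates cytosines in the CHG context (H is A, T or C), and SUVH4 binds methylated DNA and sets H3K9me2. The mark is densest over the transposons of the pericentromeres, and in the arms it is found in islands over single transposons and silenced repeats.

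The reference sequence around the strongest short peaks is shown first, because some of them held copies of the same element. Each line gives 200 bases centred on the summit, on the plus strand of TAIR10.1 as held by RefSeq, with CHG sites (CAG, CTG, CCG and CGG on the strand shown) in capitals. The first 3 windows come from pseudogene loci that share 50-base words with each other.
AT3G44390, chr3:16039239-16039438: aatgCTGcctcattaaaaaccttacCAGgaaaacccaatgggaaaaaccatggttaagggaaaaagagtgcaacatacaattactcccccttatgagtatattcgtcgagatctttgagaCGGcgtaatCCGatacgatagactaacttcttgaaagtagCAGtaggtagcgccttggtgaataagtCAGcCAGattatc
AT5G26590, chr5:9381915-9382114: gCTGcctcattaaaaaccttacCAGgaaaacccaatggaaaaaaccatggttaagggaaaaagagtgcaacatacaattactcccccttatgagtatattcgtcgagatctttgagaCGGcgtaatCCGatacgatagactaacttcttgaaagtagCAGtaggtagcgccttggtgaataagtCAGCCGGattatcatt
AT3G50490, chr3:18738697-18738896: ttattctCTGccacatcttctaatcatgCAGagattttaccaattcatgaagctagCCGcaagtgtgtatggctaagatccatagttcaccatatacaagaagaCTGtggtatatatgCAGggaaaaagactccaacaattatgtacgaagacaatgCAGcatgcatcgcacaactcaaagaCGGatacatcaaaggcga
The windows of AT3G44390 and AT5G26590 lie on different chromosomes and were identical at 195 of 197 aligned bases. The window of AT3G50490 lies in another portion of the shared sequence. The annotation gives none of these loci a description, and all 3 are typed as pseudogenes, which in this annotation is where most transposon-derived loci stand. The next 4 windows are from the short peaks of the highest fold that had their summit in a protein-coding gene.
AT5G16486, chr5:5383739-5383938: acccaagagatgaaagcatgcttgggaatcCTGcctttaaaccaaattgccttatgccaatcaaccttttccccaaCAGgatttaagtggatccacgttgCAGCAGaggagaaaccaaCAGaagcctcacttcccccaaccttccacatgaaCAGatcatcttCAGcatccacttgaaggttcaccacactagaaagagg
AT5G22590, chr5:7504456-7504655: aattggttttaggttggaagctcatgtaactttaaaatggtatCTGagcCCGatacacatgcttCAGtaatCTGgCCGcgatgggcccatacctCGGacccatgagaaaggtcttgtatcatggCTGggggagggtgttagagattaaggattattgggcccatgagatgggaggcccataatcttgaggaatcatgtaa
AT5G27790, chr5:9841498-9841697: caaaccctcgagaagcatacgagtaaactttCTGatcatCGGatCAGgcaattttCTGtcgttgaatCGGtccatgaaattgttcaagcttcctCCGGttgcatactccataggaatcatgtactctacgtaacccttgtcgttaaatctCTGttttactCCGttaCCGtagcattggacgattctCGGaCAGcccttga
AT3G22580, chr3:8002956-8003155: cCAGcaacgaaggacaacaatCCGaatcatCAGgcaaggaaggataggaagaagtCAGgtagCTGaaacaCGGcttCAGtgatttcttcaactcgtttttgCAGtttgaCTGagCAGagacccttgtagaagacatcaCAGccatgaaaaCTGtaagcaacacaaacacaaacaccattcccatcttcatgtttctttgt
AT5G16486 is annotated as a reverse transcriptase-related protein, AT5G22590 as a leucine-rich repeat protein, AT5G27790 as a protein kinase and AT3G22580 as a member of the lipid-transfer and seed storage albumin superfamily. In the order shown, these windows held 7.0, 5.5, 8.5 and 11 CHG cytosines per 100 bp over both strands.

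The short arm peaks were weakly enriched. Their fold enrichment, the authors' ratio of ChIP signal over background, ran between 1.52 and 4.16, with a median of 2.19 and quartiles of 1.93 and 2.50. The 345 long arm peaks, of at least 1000 bp, had a median of 4.28 with quartiles of 3.32 and 5.47. The 928 short peaks of the pericentromeres of the same chromosomes had a median of 2.16 with quartiles of 1.95 and 2.43, so the quartile ranges of short peaks in arms and pericentromeres overlapped almost wholly. A fold over 3 was found in 19 of the 319 short arm peaks and 278 of the 345 long ones, while 99 short arm peaks were under 2. These folds are descriptions of a group selected on width, with which fold goes together also among the short arm peaks (Spearman's rho 0.49 over 319 peaks of 1 library).

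**Figure D1:**
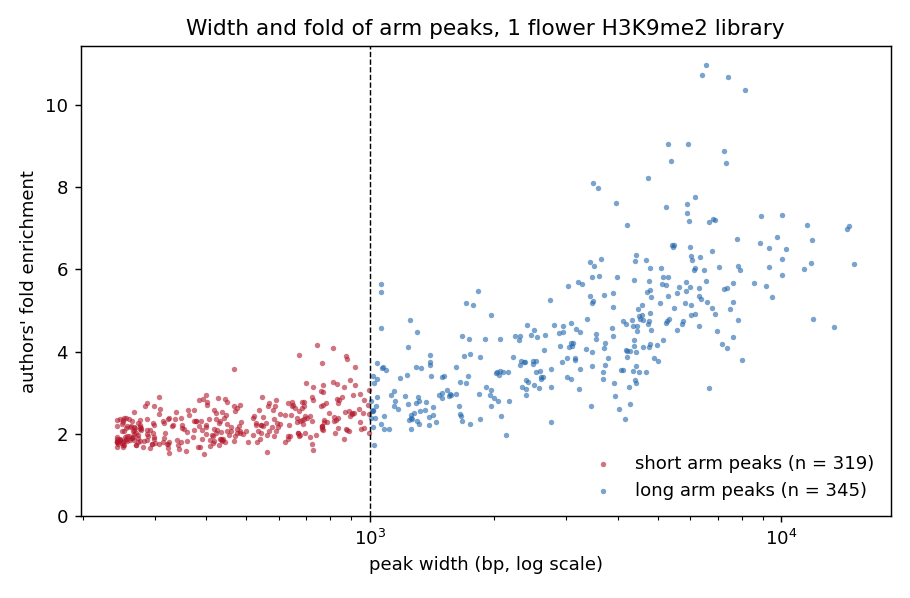
Authors' fold enrichment (vertical axis) against peak width in bp (horizontal axis, log scale) for the 319 short and 345 long arm peaks, with 1 point per peak and a dashed line at the 1000 bp limit. Fold goes up with width on both sides of the limit without a step at it.

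Widths ran between 243 and 996 bp, with a median of 437 bp and quartiles of 298.5 and 674 bp. The narrowest width, 243 bp, is also the narrowest of all 4144 peaks and was found in 9 of the short arm peaks, and 186 were under 500 bp. The limit of 1000 bp cuts a continuous range. The 3 peaks just under it were 996, 993 and 993 bp wide with folds of 2.02, 3.06 and 2.49, and the 3 arm peaks just over it were 1005, 1006 and 1008 bp wide with folds of 2.38, 2.81 and 2.55. Together the short peaks covered 159061 bp, or 0.235% of the 67763003 bp of these arms, against 1371228 bp or 2.02% for the long arm peaks.

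The highest fold, 4.16, was that of the peak in AT3G44390 (chr3:16039123-16039863). It was followed by AT1G17277 with 4.09 (chr1:5915605-5916416), AT5G27500 with 3.93 (chr5:9708885-9709557) and AT3G50490 with 3.89 (chr3:18738382-18739257). All 4 of these summits lay in pseudogene loci. The next was AT5G16486, the reverse transcriptase-related gene, with 3.83 (chr5:5383355-5384232), then AT5G26590 with 3.72 (chr5:9381693-9382454) and AT5G22590, the leucine-rich repeat gene, with 3.64 (chr5:7504351-7505268). A peak outside every annotated locus, chr5:9092623-9093088, had a fold of 3.58, and the pseudogene loci AT1G78355 (chr1:29478516-29479407) and AT5G03950 (chr5:1066213-1067025) had 3.30 and 3.25. The 10 strongest short peaks were thus 7 pseudogene loci, 2 genes and 1 region with no locus. The 3 lowest folds, 1.55, 1.54 and 1.52, all had their summits in coding sequence: AT1G13470 (a hypothetical protein), AT1G48725 (uncharacterized, overlapped at the summit by AT1G48730) and AT1G32720 (annotated as a cytochrome c oxidase VIB family protein).

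Short peaks were densest beside the pericentromeres. In the first Mb from the border they stood at 18.3 per Mb of arm, with 8.0 in the second Mb, 4.83 in the third and 3.67 in the fourth. Of the 319, 110 were in that first Mb, which is 6 Mb over the 6 arms. Long arm peaks followed a similar course, with 17.0, 8.67, 4.33 and 5.83 per Mb. Beyond 7 Mb the density of short peaks was between 0.32 and 2.83 per Mb up to the 13th Mb. The 6 arms had between 4.10 and 6.35 short peaks per Mb, and the median fold of an arm was between 2.17 and 2.32. The share of short peaks within 1 Mb of the border was lowest on the end arm of chromosome 5, 9 of 52, and highest on the end arm of chromosome 3, 25 of 48.

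**Figure D2:**
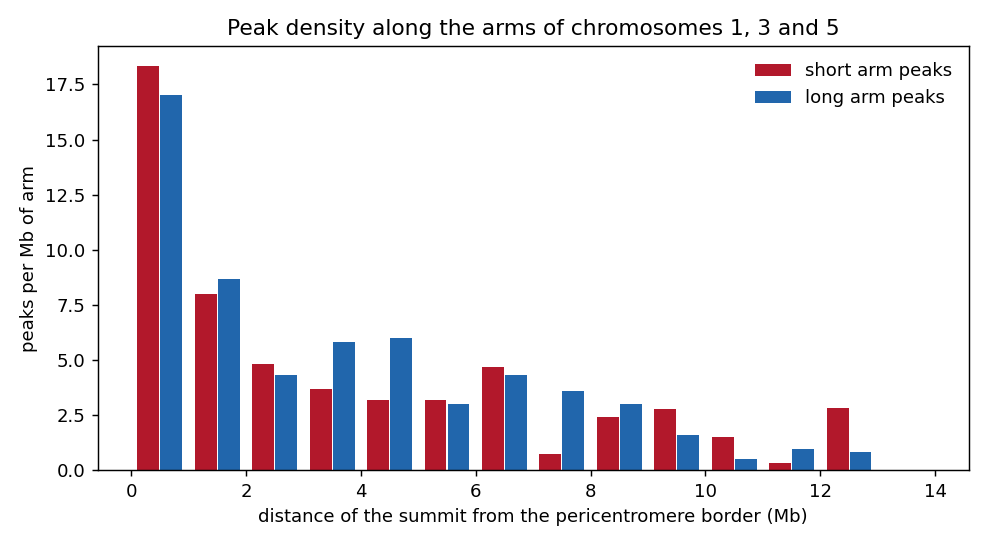
Peaks per Mb of arm (vertical axis) by distance of the summit from the pericentromere border in steps of 1 Mb (horizontal axis), with short arm peaks left and long arm peaks right in each pair of bars, over the 6 arms. Both are highest in the first Mb, at 18.3 and 17.0 per Mb.

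The short arm peaks fell into clustered and isolated ones. The gap to the nearest other peak was under 2 kb in 181 of 319 (56.7%, 95% Wilson interval 51.3 to 62.1), and in 92 it was under 200 bp, where the smallest gap in the list is 51 bp. At the other end, 96 had no other peak within 20 kb and 32 none within 100 kb. Among long arm peaks 36.8% had another peak within 2 kb (31.9 to 42.0), and among short pericentromere peaks 90.3% (88.2 to 92.0). The 3 short peaks farthest from any other were in AT1G10260, a pseudogene locus, with a gap of 419779 bp and a fold of 2.46 (chr1:3360681-3361300), in AT3G02515 (SADHU6-1, chr3:525473-525939), with a fold of 1.83, and in AT3G01345 (chr3:129312-130299), with a fold of 2.69. The last pair are each other's nearest peak, 395173 bp apart. SADHU6-1 is annotated as a member of the Sadhu family of non-coding retrotransposons.

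**Figure D3:**
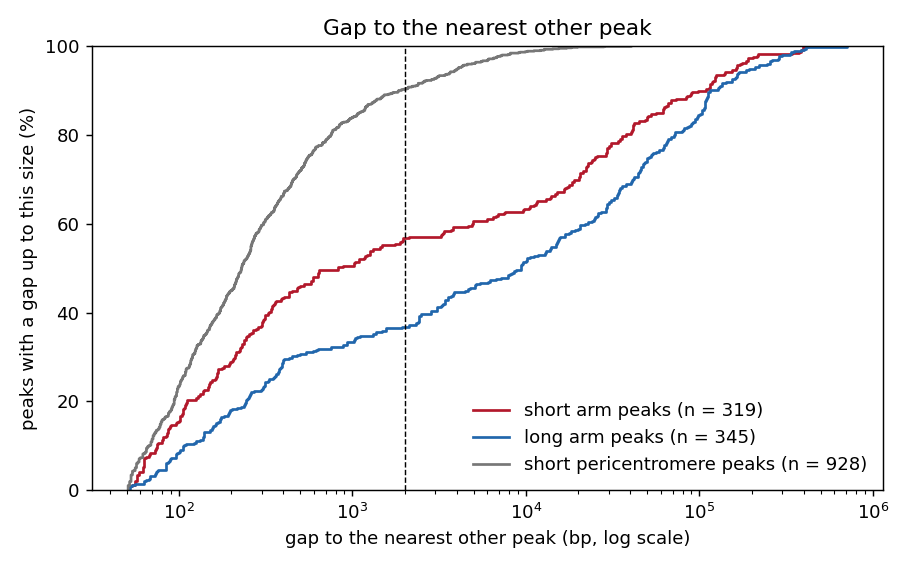
Percent of peaks (vertical axis) whose gap to the nearest other peak is at most the size in bp on the horizontal axis (log scale), 1 line per group, with a dashed line at 2 kb. At that line the short arm peaks stand at 56.7%, between the long arm peaks at 36.8% and the short pericentromere peaks at 90.3%.

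Pseudogene loci held a smaller share of the summits of short arm peaks than of long arm peaks. The counts were 110 of 319 (34.5%, 95% Wilson interval 29.5 to 39.9) and 247 of 345 (71.6%, 66.6 to 76.1), a difference of -37.1 percentage points (95% Newcombe interval -43.8 to -29.8). Pseudogene loci make up 2.19% of the bases of these arms. Short pericentromere peaks had 375 of 928 summits in such loci (40.4%, 37.3 to 43.6), and the difference of -5.93 points (-11.9 to 0.28) had an interval that included 0. This call turned on the setting, since the interval lay wholly below 0 in 6 alternatives. Their differences ran between -6.85 points (any overlap of 1 bp) and -19.4 points. The latter left out short arm peaks with a neighbour within 2 kb. It kept all short pericentromere peaks, of which 90.3% had such a neighbour. Among peaks at or above the median fold the difference was 0.86 points (-13.6 to 15.4). Seen from the loci, 93 of the 626 pseudogene loci of the arms were overlapped by a short peak, the 14.9% that stands as the background for any count among them. A long peak overlapped 316 of them (50.5%), and 30 had both.

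Protein-coding genes held the summits of 76 short arm peaks (23.8%, 19.5 to 28.8), against 55 of 345 long arm peaks (15.9%, 12.5 to 20.2) and 68 of 928 short pericentromere peaks (7.33%, 5.82 to 9.19), while 63.9% of the arm bases lie in such genes. Pericentromeres were drawn by their low gene share, so a lower share of summits in or near genes there is partly built in by the border. The difference to long arm peaks was 7.88 points (1.81 to 13.95) and that to short pericentromere peaks 16.5 points (11.8 to 21.7). Neither interval stayed clear of 0 at higher fold. Among peaks at or above 2.60, the median of all 4144, 7 of 63 short arm peaks had a summit in a gene (11.1%), against 16.1% of 311 long arm peaks, and the difference was -4.97 points (-12.2 to 5.77). The difference to short pericentromere peaks was then 6.08 points, with an interval that included 0 (-1.45 to 16.5). With a fold under that median, 69 of 256 short arm peaks (26.95%) had one. The difference to long arm peaks also came to 0.15 points (-6.41 to 6.75) when any overlap of at least 1 bp was counted in place of the summit, a count in which a wider peak reaches more loci. A further 42 short arm peaks lay outside every locus but within 1 kb of a protein-coding gene (13.2%, 9.89 to 17.3), 29 of them upstream and 13 downstream, compared with 3.77% of long arm peaks (difference 9.40 points, 5.23 to 13.8) and 4.53% of short pericentromere peaks (difference 8.64 points, 5.02 to 12.95). All arm bases had 21.2% in that class.

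**Figure D4:**
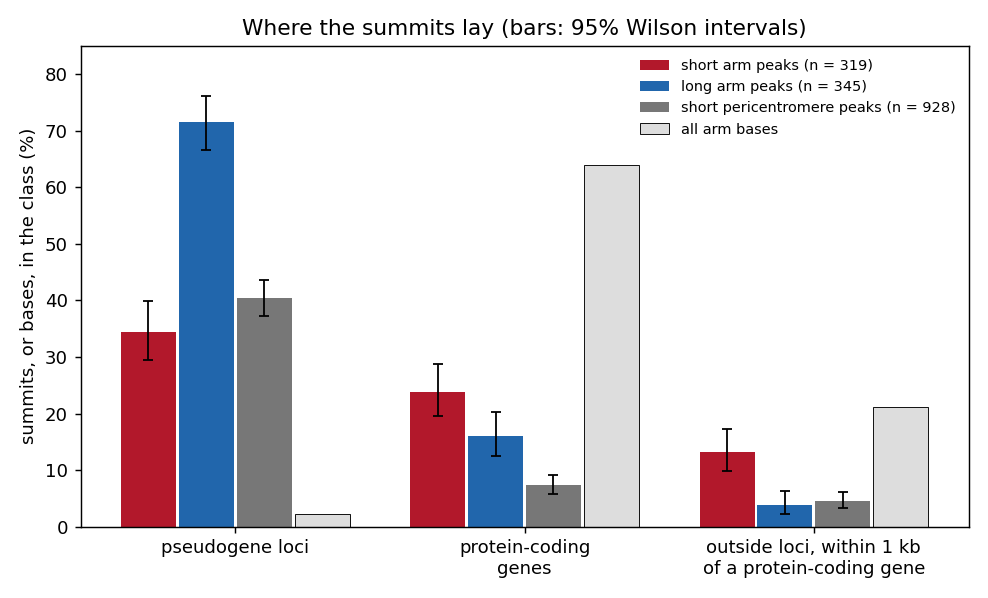
Percent of summits (vertical axis) in pseudogene loci, in protein-coding genes and outside loci within 1 kb of a gene, for short arm, long arm and short pericentromere peaks, with 95% Wilson intervals, beside the percent of all arm bases in the class. Pseudogene loci hold 34.5% of short and 71.6% of long arm summits but 2.19% of the bases.

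Of the remaining summits, 77 were outside every locus and more than 1 kb from any protein-coding gene, 7 in lncRNA genes, 1 in another RNA gene and 6 in transcribed pseudogenes. The transcribed pseudogene AT1G73175, which the annotation describes as a LINE retrotransposon, had a pair of short peaks 57 bp apart with folds of 2.59 and 1.73. The lncRNA with the highest fold was AT3G05595, at 2.32. No summit was in a tRNA, miRNA, snoRNA, snRNA or rRNA gene. Within protein-coding genes, 59 summits were in coding sequence, 12 in introns and 5 in other exons. The median fold was 2.29 for summits in pseudogene loci (1.59 to 4.16), 2.24 outside loci and more than 1 kb from a protein-coding gene (1.74 to 3.58) and 2.095 in protein-coding genes (1.52 to 3.83), so the ranges overlapped widely.

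What a short peak lay in went with its neighbours, a division made after the data were seen and therefore given with no test. Of the 138 short arm peaks with no other peak within 2 kb, 51 had their summit in a protein-coding gene (36.96%, 29.4 to 45.3) and 29 in a pseudogene locus (21.0%, 15.1 to 28.6). Of the 99 that lay within 2 kb of a long peak, 5 were in a gene (5.05%, 2.18 to 11.3) and 51 in a pseudogene locus (51.5%, 41.8 to 61.1). The 82 beside short peaks only had 20 in genes and 30 in pseudogene loci. Isolated peaks had a median width of 446 bp and a median fold of 2.104. Those beside long peaks had 421 bp and 2.198, and those beside short peaks only had 450 bp and 2.269.

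Windows at the summits were richer in G and C than the arms at large, and less so than those of long arm peaks. The median GC of the 200 bp around the summit was 41.0% in short arm peaks (quartiles 36.5 and 45.0), 45.0% in long arm peaks (41.5 and 49.0), 39.5% in short pericentromere peaks (36.0 and 43.0) and 36.0% in all 338802 windows of the arms (31 and 41). CHG cytosines, the sites of CMT3, came to a median of 6.0 per 100 bp on both strands in short arm peaks, 8.5 in long arm peaks, 5.0 in short pericentromere peaks and 5.0 in all arm windows. CG cytosines had a median of 5.0 in each of the 3 groups of peaks and 4.0 in all arm windows. Spelled out on the plus strand, CAG occurred on average 2.56 times in a short arm window, 3.44 times in a long arm window and 2.09 times in all arm windows. CCG, which overlaps a CG site, occurred on either strand 2.75, 3.13 and 1.94 times in the same order. At least 1 CAG or its reverse complement CTG was in 94.98% of the short arm windows and 94.5% of all arm windows, and at least 1 CCG on either strand in 79.9% and 70.7%. Among short arm peaks, summits in protein-coding genes had a median of 43.3% GC and 7.0 CHG per 100 bp, and those outside loci and more than 1 kb from any protein-coding gene 38% and 4.5.

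**Figure D5:**
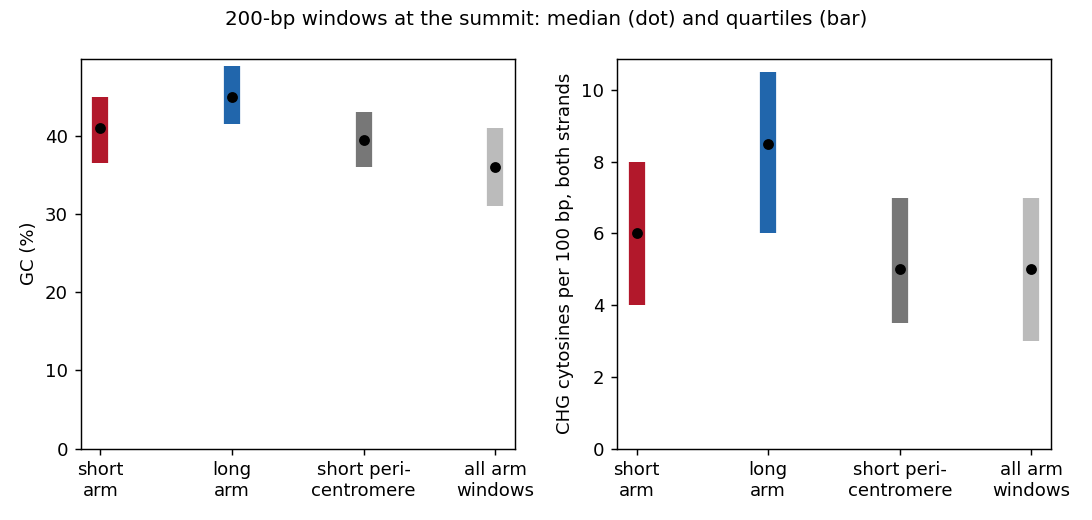
GC percent (left) and CHG cytosines per 100 bp on both strands (right) in 200-bp windows at the summit, as the median (dot) and quartiles (bar), for the 3 groups of peaks and all arm windows. Short arm peaks, with medians of 41.0% and 6.0, stand between long arm peaks and all arm windows in both.

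Most short arm peaks held repeated sequence. Reads were 50 bases long, so repeats were counted as 50-base words found more than once in the nuclear chromosomes on either strand. At least 1 such word was in 222 of the 319 short arm peaks (69.6%), in 83.8% of the long arm peaks and in 59.3% of the short pericentromere peaks, where a wider peak has more words. Of all words, 34.4% were repeated in short arm peaks and 38.9% in long arm peaks, against 3.23% of the arm bases. In 12 short arm peaks every word was repeated, and in 97 none was. Reads from a repeated word cannot be placed on 1 copy, and how such reads were treated is not given in the sources used here, so the share of a peak's signal that came from its other copies was not tested. For the 222 peaks with repeats, a median of 73.9% of the other copies of their words lay inside a peak. The same median was 94.7% for long arm peaks and 81.0% for short pericentromere peaks, and of all repeated words of the 5 chromosomes 57.8% started inside a peak. All of those copies did so in 49 of the 222, and none in 40. Summits in genes were least often in repeated peaks among the 3 large classes: 34 of 76 (44.7%) had no repeated word, against 29 of 110 (26.4%) in pseudogene loci and 21 of 77 (27.3%) outside loci and more than 1 kb from a protein-coding gene.

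Shared words joined 79 of the short arm peaks into 29 families, of which 16 were pairs and 26 had members over 100 kb apart or on different chromosomes. The family of the highest fold had 4 members, AT3G44390, AT3G50490, AT5G26590 and AT1G19392, with folds of 4.16, 3.89, 3.72 and 3.19. The sequence of AT3G44390 recurred with at least 100 shared words at 21 other places on all 5 chromosomes, and a peak lay over each of the 21. At 14 of them the strongest such peak was itself under 1000 bp, and the folds ran between 2.103 and 4.764. For AT3G50490 it was 20 of 23 places, for AT5G26590 it was 19 of 19 and for AT1G19392 it was 16 of 16. The near-identical windows printed for AT3G44390 and AT5G26590 are 2 of these copies. Places with under 100 shared words are left out of these counts. Some of those had no peak, as at chr2:1617745-1617848 with 55 words of AT3G44390. Others had one, as at chr3:11321730-11322057 with 53. Copies with the same words can share reads, so the peaks over them are not independent counts.

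The largest family had 6 members, all in pseudogene loci: AT5G03950 (fold 3.25), AT1G17900 (3.06), AT5G44313 (2.86), AT5G40110 (2.50), AT1G55400 (2.48) and AT3G45120 (1.88). Each was at least 575 bp from its nearest peak, and all but AT5G03950 at least 9663 bp. The places with copies were under a peak at 2 of 3 other places with at least 100 shared words for AT5G03950, 0 of 1 for AT1G17900, 3 of 4 for AT5G44313, 1 of 1 for AT5G40110 and 2 of 3 for AT1G55400, while AT3G45120 had no such place. A close pair was AT1G17277 and AT1G78355, among the 10 strongest short peaks at 4.09 and 3.30, each of which was the only other place with at least 100 words of the other. AT5G27500 and AT5G22590, by contrast, with folds of 3.93 and 3.64, had no repeated word. Only exact words were counted, so copies that differ at a few bases were not looked for. Words with more than 100 copies occurred in 2 short arm peaks, one in the pseudogene locus AT5G10670 (fold 3.14) and one 470 bp downstream of AT1G20290 (fold 1.71). Words shared with the mitochondrial genome were in 2 short arm peaks and words shared with the chloroplast genome in 2.

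Few genes were involved. A short peak overlapped 70 of the 18172 protein-coding genes of the arms, or 0.385%, and 67 genes held a summit. Long peaks overlapped 107, and 3 genes had both. Summits were spread along the gene bodies, with 26 of the 77 pairs of summit and gene nearest its start when the gene is cut into 3 equal stretches, 31 in the middle and 20 nearest its end. After AT5G16486 (3.83) and AT5G22590 (3.64), the highest folds in genes were 3.03 in AT5G27790 (a protein kinase), 2.88 in AT3G22580 (a lipid-transfer superfamily protein), 2.69 in AT3G01345 (uncharacterized) and 2.67 in AT1G48720 (a Copia-like polyprotein). They were followed by 2.62 in AT1G34015 (an S-locus glycoprotein family protein), 2.59 in AT1G67870 (a glycine-rich protein), 2.58 in AT5G15360 (uncharacterized) and 2.57 in AT1G60720 (reverse transcriptase-related). In AT1G48720 and AT1G60720, 88.3% and 70.4% of the words of the peak were repeated, with some copies under long peaks elsewhere. Their folds can therefore not be assigned to these genes alone. In the others of these 10 genes at most 18.9% of the words were repeated. The window of AT1G67870 had 67.5% GC and 20.5 CHG per 100 bp, the highest of all 319 in both. The peaks in AT5G27790, AT1G48720 and AT1G34015 had another peak within 2 kb, and the other 7 of these 10 stood at least 88653 bp from any.

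Several of the genes carry words of transposons in their annotation, a group added after the data were seen. A short peak overlapped 8 of the 62 such genes of the arms (12.9%, 95% Wilson interval 6.69 to 23.5), and a long peak also 8. Genes annotated as hypothetical, uncharacterized or of unknown domain had 20 of 2555 (0.783%, 0.507 to 1.21). Among larger families, F-box genes, whose proteins pick targets for ubiquitination, had 5 of 497 (1.01%, 0.43 to 2.33). Groups were matched by words in the annotation, so differently worded genes are left out. The kinase words missed the wall-associated kinase gene WAK5 (AT1G21230), which had a short peak with a fold of 2.40. Genes that matched the words for receptor-like, serine/threonine or protein kinases had 1 of 693, disease resistance genes 1 of 163 and cytochrome P450 genes 1 of 162. None was found among 204 defensin-like and other cysteine-rich genes, 205 pentatricopeptide repeat genes and 402 zinc finger genes, which allows shares of up to 1.85%, 1.84% and 0.947% (upper Wilson bounds). Genes with none of these words had 31 of 13238 (0.234%). All are to be read beside the 0.385% over all genes.

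AGAMOUS-like genes, which encode MADS-box transcription factors, had 3 of 58 (5.17%, 1.78 to 14.1) under a short peak and none under a long one. They were AGL36, AGL90 and AGL92, each with its summits in coding sequence. AGL36 (AT5G26650), which is known to be imprinted in the endosperm, had a peak of 247 bp (chr5:9343873-9344119) with a fold of 2.37 and stood 37573 bp from the nearest other peak. AGL90 (AT5G27960) had a pair of peaks 344 bp apart, one of 267 bp with a fold of 2.09 (chr5:9991779-9992045) and one of 250 bp with a fold of 2.33 (chr5:9992390-9992639). AGL92 (AT1G31640) had a peak of 544 bp (chr1:11323194-11323737) with a fold of 2.22. AGL36 and AGL90 lie in the first Mb from a pericentromere border and AGL92 in the second. Short peaks of all kinds stood there at 18.3 and 8.0 per Mb, more than farther out. The 0.385% over all arm genes is not matched for place. The AGL36 peak and the second AGL90 peak share a few 50-base words, and 50.0% of the words of the first AGL90 peak are repeated, with their copies in AGL36 at a place where no peak was called. Reads of the first AGL90 peak can therefore not all be told apart from reads of AGL36.

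Of 11 genes known as imprinted or active in the endosperm, these 2, AGL36 and AGL90, had short peaks and none had a long one. Over all arm genes the shares were 0.385% and 0.589%. The library was made from unopened flower buds and not from endosperm, so it does not bear on imprinting there. At those shares few or no genes of so short a list would carry a peak. MEA, PHE1, PHE2, HDG8, HDG9, YUC10, VIM5, FH5 and AGL28 had neither a short nor a long peak. Their nearest peak stood between 5034 bp (PHE1) and 229219 bp (HDG8) away. Of 5 genes known for heterochromatin or a transposon in an intron, only RPP7 (AT1G58602), a disease resistance gene, had a short peak. It was 318 bp wide (chr1:21753946-21754263) with a fold of 2.02, had its summit in an exon outside the coding sequence, and stood 301 bp from a long peak of 6316 bp and a fold of 5.54. That long peak also overlapped RPP7, so the gene had both kinds. AT3G05410 and AT1G11270 had long peaks only, and the histone demethylase gene IBM1 and PPH had none, at 164982 and 125611 bp from the nearest. None of 12 genes of the DNA methylation and H3K9me2 machinery, MET1, CMT3, DRM2, SUVH4, DDM1, DME, NRPD1, DCL3, MOM1, IBM2, EDM2 and IBM1, was overlapped by a peak, and the nearest ones were between 20474 and 389024 bp away. With 0.385% and 0.589% of all arm genes under short and long peaks, a list of 12 with none does not stand apart. DCL3 is the 1 of these that lies in a pericentromere.

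More than 1 short summit was held by 9 genes. AT1G29620, annotated as a cytochrome c oxidase VIB family protein, had 3 peaks with gaps of 65 and 56 bp and folds of 2.27, 2.13 and 1.86, which together spanned most of the gene (chr1:10347363-10349017). AT1G32720, of the same annotation, had 2 with folds of 1.80 and 1.52. Peaks of AT1G29620 and AT1G32720 share words with each other, and between 57.5% and 93.5% of the words of each peak are repeated. Their reads can therefore not all be told apart. The other genes with 2 were AT1G34015, AT1G34315, AT1G52950, AT1G59453, AT3G28870, AT5G27606 and AGL90. AT1G59453 and AT1G58766 are both annotated as TFIIIC subunits, and every word of their peaks is repeated, so their folds of 2.18, 1.73 and 2.03 cannot be assigned to one copy.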

How the data were processed

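The ChIP-seq data for H3K9me2 are 1 library of flower buds, sequenced as single-end 50 bp reads. The submitters' processing notes name Bowtie 1.1.2, SAMtools, MACS2 2.1.1 and TAIR10, without their roles. The control, the peak threshold and the treatment of reads with several placements are not given in the sources used here. The deposited list gives for each peak the authors' fold enrichment (a ratio over background), their −log10 p-value and −log10 q-value, a score, and the offset of the summit. The 4144 peaks were used as deposited, with the RefSeq sequence and annotation of TAIR10.1, and no peak ends past a chromosome of that build. That annotation has no transposon class here, and pseudogene loci were counted as typed.

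Pericentromeres were the longest run of 100 kb bins with a gene share, averaged over 5 bins, under 50% of the chromosome's median, which put the borders at 12800000 to 16800000 (chromosome 1), 11100000 to 15900000 (chromosome 3) and 10000000 to 14300000 (chromosome 5). Each summit was assigned to a locus, or to the nearest protein-coding gene within 1 kb. Shares have 95% Wilson intervals, and differences 95% Newcombe intervals. Peaks are not replicates, so the intervals measure counting only and no test between samples was possible. Windows were 200 bp, words 50 bases, and aligned windows were compared with Biopython 1.88. The border search, the Newcombe interval, the count of repeated words and the cytosine contexts were tested on simulated data, and the other steps were not.

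The named peaks were the 10 of the highest and 3 of the lowest fold, the 3 most isolated and the 3 on each side of the width limit. Named genes were the 10 of the highest fold with a summit and those of 3 gene lists, and other genes were named after their values were seen. The members, lists and groups were chosen with earlier results of these data known. Alternatives changed the fold, q-value and width limits, the borders, the merging of close peaks, the point or overlap used, and the chromosome. Counting transcribed pseudogenes with pseudogene loci and leaving out short arm peaks with a neighbour within 2 kb were added after the data were seen. The latter kept the other groups of peaks whole. The software was SciPy 1.17.1, pandas 2.3.3, NumPy 2.4.6 and, for plots, matplotlib 3.10.9, under Python 3.11.15.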

Additional observations from a re-analysis of the deposited data

How the results depend on the processing

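The list holds no depth, so how many weaker regions stayed under the calling threshold is unknown, and with 1 library no spread between libraries can be set against any value. No paired analysis was possible because the H3K9me2 peaks come from 1 library and no result rests on a test between numbered samples. The lower share in pseudogene loci than among long arm peaks kept its direction, with an interval without 0, in all 13 alternatives (-50.6 to -26.0 points). The higher share in genes than among short pericentromere peaks kept its direction in all 12 (6.08 to 29.6 points). Pericentromeres were drawn by their low gene share, which partly builds that direction in. The extremes of -50.6 and 29.6 points came from leaving out short arm peaks with a neighbour within 2 kb while the compared groups were kept whole.

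With only peaks at or above the median fold, 63 short arm peaks were left. Their shares were 47.6% in pseudogene loci, 11.1% in genes, 76.2% with a repeated word and 44.4% within 2 kb of another peak. Gaps were measured among the peaks kept, which partly builds in a lower share with a neighbour. The difference in genes turned to -4.97 points against long arm peaks and came to 6.08 points (-1.45 to 16.5) against short pericentromere peaks. The difference in pseudogene loci turned to 0.86 points (-13.6 to 15.4) against short pericentromere peaks. Under 500 bp there were 186 peaks, with 28.5% in pseudogene loci. After merging peaks under 1 kb apart there were 166, with 23.5% in pseudogene loci, 33.1% in genes and 12.7% within 2 kb of another peak. Merging removes all gaps under 1 kb, so a low share with a neighbour is largely built in. Without neighbours within 2 kb there were 138, with 21.0% and 36.96%. The single chromosomes had 125, 94 and 100 peaks, and chromosome 5 had 75% with a repeated word.

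The difference in genes to long arm peaks had an interval that included 0 with any overlap of 1 bp (0.15 points), on chromosome 3 (1.76) and on chromosome 5 (7.71). The difference in pseudogene loci to short pericentromere peaks had an interval wholly below 0 under 500 bp (-8.53), with wider pericentromeres (-7.75) and after merging (-12.5). The same was found with any overlap (-6.85) and with transcribed pseudogenes included (-7.93). It was also found without the short arm peaks that had a neighbour, with all short pericentromere peaks kept (-19.4). The cause of these changes was not tested. Of 134 recalculated values, 99 kept both their direction and their call or, where there was no test, stayed near the value reported.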
